A study of Mus musculus with 2 samples.

Results

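S100 proteins are small cytosolic proteins of the EF-hand type that bind calcium and then dock onto partner proteins. The 5 S100 genes described here, S100a8, S100a9, S100a6, S100a10 and S100a11, were chosen by name, as the rows of these symbols in the count tables of single bone marrow cells. All 5 of 5 were listed in both tables, among 12760 genes in the Col1a1fspKO library and 12763 in the WT library. S100a4, known as Fsp1, whose promoter drives the Cre of the mouse model, is not among them.

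Cells washed out of the marrow of femora and tibiae of mice aged 2 months were sorted as live by a viability dye and taken for droplet 3′ sequencing. Col1a1fspKO mice carried Fsp1-Cre and Col1a1flox/flox, so that the recombinase is made in cells that use the Fsp1 promoter. WT mice were Cre-negative littermates with the same loxP-flanked Col1a1 alleles, and neither genotype received a treatment. Marrow of 2 mice was pooled for each genotype and gave 1 library, so the spread between mice is unknown and no difference between genotypes was tested. Every interval below is a 95% interval for counting error alone.

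The Col1a1fspKO library held 1309 cells and 8647722 unique molecular identifiers (UMIs), and the WT library held 1169 cells and 8624469 UMIs. The median cell had 4954 and 5534 UMIs, respectively. Of all 2478 cells, 2287 fell into 13 classes by marker genes that did not include any S100 gene. A further 87 cells passed the gates of 2 lineages and 104 passed none. The libraries shared 2 cell barcodes. Col1a1, the deleted gene, had 3 UMIs in the Col1a1fspKO library, which allows up to 1.01 per 1000000 UMIs, and was not listed for WT, so these cells hold too little of it to check the labels.

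S100A8 and S100A9 pair to form calprotectin, an abundant cytosolic protein of neutrophils that binds zinc, manganese and calcium and, once released, signals through innate immune receptors. S100A10, also called p11, is the member that no longer binds calcium and forms a tetramer with annexin A2 at membranes. S100A11, or calgizzarin, partners with annexin A1. S100A6, or calcyclin, binds annexin A11 and the calcyclin-binding protein Cacybp. Neutrophils mature in the marrow from Mpo-expressing progenitors through stages that make granule proteins in sequence. The 4 neutrophil classes are named here after a marker in their gate. Fcnb marks an earlier stage, Mmp8 a later one and Retnlg the most mature cells. Ltf+ neutrophils are cells that reach the Ltf limit but lie below the limits for Retnlg, Mmp8 and Fcnb. Ltf does not single out this class, since its level was higher in Mmp8+ neutrophils in both libraries.

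All 5 genes lie on mouse chromosome 3, in 2 groups. In GRCm38.p6, S100a6 spans 90612894 to 90614414, S100a8 spans 90669071 to 90670034 and S100a9 spans 90692630 to 90695721. S100a11, at 93520496 to 93526288, and S100a10, at 93555117 to 93564645, lie 2824774 bases further on. S100a8 and S100a9 start 26650 bases apart and are read from opposite strands. The 250 bases upstream of 3 members are shown because S100a8 and S100a9 had nearly one pattern across cell classes and S100a6, in the same group of genes, had another. Capitals mark TATAAA (the core of a TATA box), GAGGAA (a PU.1-type core) or TTNNGCAA (a C/EBP-type site) on either strand, and the sequences, from RefSeq, run 5′ to 3′ on the strand of the gene.
S100a8, chr3:90668821-90669070, plus strand: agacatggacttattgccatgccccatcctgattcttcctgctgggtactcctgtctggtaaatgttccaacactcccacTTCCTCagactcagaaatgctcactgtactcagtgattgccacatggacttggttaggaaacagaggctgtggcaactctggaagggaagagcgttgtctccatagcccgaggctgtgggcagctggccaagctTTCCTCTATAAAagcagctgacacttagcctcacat
S100a9, chr3:90695722-90695971, minus strand: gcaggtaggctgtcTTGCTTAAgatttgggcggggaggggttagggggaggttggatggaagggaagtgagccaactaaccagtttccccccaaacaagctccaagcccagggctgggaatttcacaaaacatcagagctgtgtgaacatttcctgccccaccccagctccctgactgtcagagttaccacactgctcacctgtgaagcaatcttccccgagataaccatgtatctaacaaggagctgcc
S100a6, chr3:90612644-90612893, plus strand: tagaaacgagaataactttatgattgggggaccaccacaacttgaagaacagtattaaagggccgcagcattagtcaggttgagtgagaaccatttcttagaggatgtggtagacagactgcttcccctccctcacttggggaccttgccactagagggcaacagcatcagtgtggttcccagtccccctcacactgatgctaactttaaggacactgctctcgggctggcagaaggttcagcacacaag
The S100a8 stretch held a TATAAA and, directly before it, a GAGGAA read on the opposite strand, with another further upstream. The S100a9 stretch held 1 C/EBP-type match and no TATAAA before the start, but bases 1 to 6 from the start read TATAAA. None of the letters searched was in the S100a6 stretch. Of 32851 mouse promoters of 300 bases, 250 before and 50 after the start, 13.6% held TATAAA, 28.3% GAGGAA and 10.8% TTNNGCAA, so none of these letters is rare. The S100a11 stretch had 60.0% G and C and 1 GAGGAA, against a median of 52.4% G and C over all promoters. S100a10 had no entry in the promoter table.

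S100a8 and S100a9 were the first and second most abundant of all genes in both libraries, and together they made up 10.5% of all UMIs in Col1a1fspKO and 10.0% in WT. The other members were far lower. Over all cells, in UMIs per 1000000 UMIs (CPM), S100a11 was at 1782 in Col1a1fspKO and 1453 in WT, S100a6 at 1190.1 and 931, and S100a10 at 425 and 367. UMIs were counted at the 3′ end, so these levels do not grow with transcript length.

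**Figure D1:**
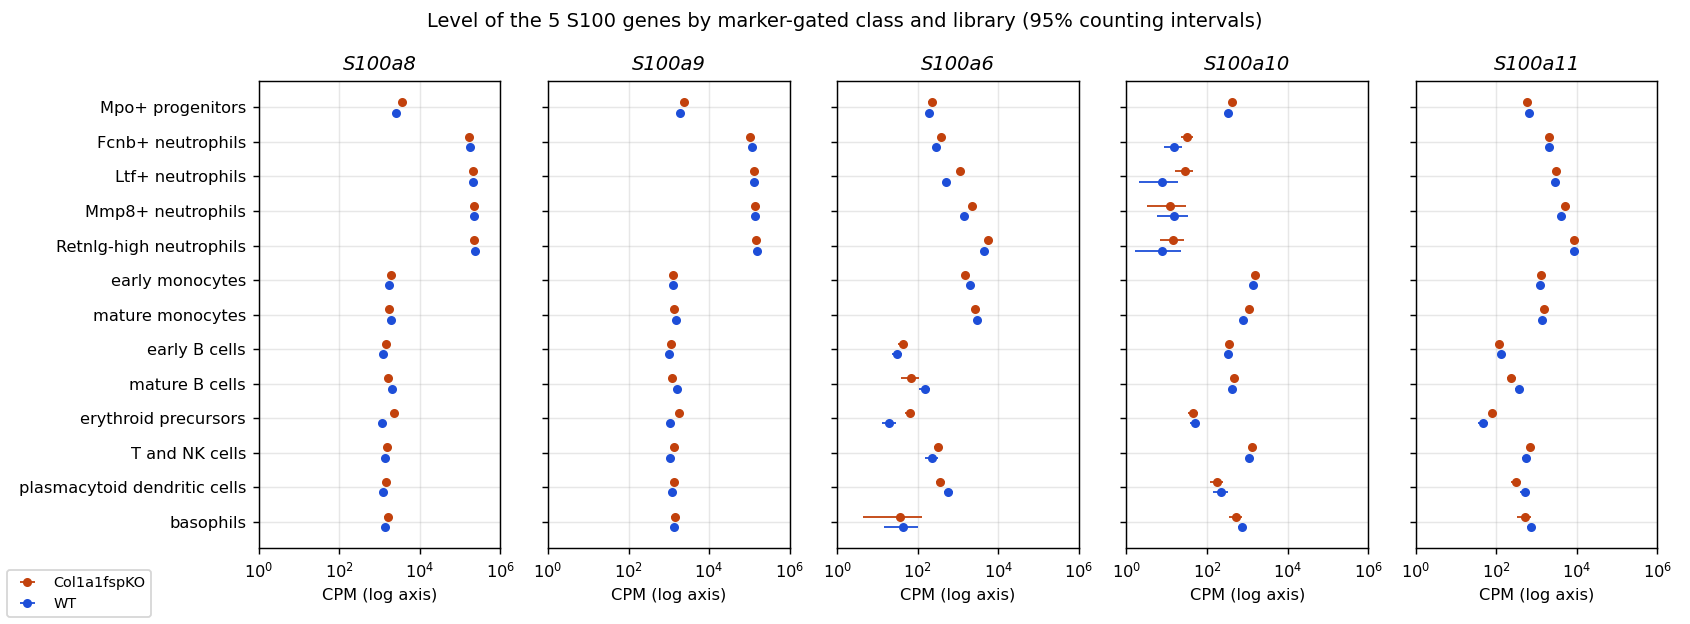
Level of each of the 5 S100 genes in the 13 marker-gated classes, in CPM of the class on a log axis, with Col1a1fspKO in red, WT in blue and 95% counting intervals as bars. S100a8 and S100a9 stand at 101993 CPM or more in the 4 neutrophil classes and at 3552 CPM or less in every other class, while S100a10 is lowest in the neutrophil classes.

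S100a8 was a gene of the neutrophil classes, high in the earliest of them and higher in the later ones. In Fcnb+ neutrophils it was at 166943 CPM in Col1a1fspKO and 179523 in WT. In Ltf+ neutrophils the levels were 212345 and 213447 CPM, in Mmp8+ neutrophils 221799 and 217153, and in Retnlg-high neutrophils 224620.2 and 229319. The order of the 4 classes was the same in both libraries, with no overlap between neighbouring intervals. Single Retnlg-high cells varied little, with 10th and 90th percentiles of 190725 and 258573 CPM in Col1a1fspKO and 197966 and 265657 in WT. Fcnb+ cells varied more, with 124514 and 243644 CPM in Col1a1fspKO and 140873 and 234042 in WT. The median Fcnb+ cell, at 195210.2 and 198001 CPM, lay above the sum of its class, so the rise from this class was smaller by median cells.

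S100a8 was far lower in Mpo+ progenitors than in any neutrophil class. The gate on Camp, Ngp and Ltf parts these classes, and S100a8 went with Ngp across classes (Pearson's r 0.993). A gap in S100a8 between them was therefore partly set by the gates. Mpo+ progenitors, the class gated on Mpo, Elane, Prtn3, Ctsg and Ms4a3 and on the absence of a lineage gate, had 3552 CPM of S100a8 in Col1a1fspKO (27 cells) and 2598 in WT (31 cells). Most of these cells were lower than the sum implies, since the median cell had 1512 and 1503 CPM. The 90th percentile reached 4927 and 9044 CPM. From Fcnb+ to Retnlg-high neutrophils the further change in S100a8 level was 1.35-fold in Col1a1fspKO and 1.28-fold in WT, log2 ratios of 0.43 and 0.35. S100a8 and S100a9 make up much of the total they are divided by here. Without both genes in the total, the log2 ratios were 0.65 and 0.54, and in thinned cells they were 0.23 and 0.29.

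S100a9 followed the same course at a lower level. It went in Col1a1fspKO from 101993 CPM in Fcnb+ neutrophils through 126554 and 139686 to 148757 in Retnlg-high cells. The WT levels were 115809, 132899, 135084 and 153615 CPM in the same order. Retnlg-high over Fcnb+ neutrophils gave ratios of 1.46 and 1.33, log2 ratios of 0.54 and 0.41, which were 0.77 and 0.60 without both genes in the total. Together the genes of calprotectin took 26.9% of all UMIs of Fcnb+ neutrophils in Col1a1fspKO and 29.5% in WT, and 37.3% and 38.3% of those of Retnlg-high neutrophils.

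Within neutrophils the subunit transcripts kept a narrow ratio. S100a8 UMIs per S100a9 UMI were 1.64 in Fcnb+ neutrophils of Col1a1fspKO and 1.55 in those of WT, 1.68 and 1.61 in Ltf+, 1.59 and 1.61 in Mmp8+, and 1.51 and 1.49 in Retnlg-high cells. Across single cells thinned to 2500 UMIs, Spearman's rho of S100a8 with S100a9 was 0.70 over 114 Fcnb+ neutrophils of Col1a1fspKO and 0.82 over 136 of WT, and 0.35 in Retnlg-high cells of both libraries. The cells of a class share a library and the genes share the total they are divided by, so these values describe and carry no test.

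Outside neutrophils, S100a8 UMIs were found in nearly every cell, at a low level. After thinning to 2500 UMIs, 95.9% of mature monocytes in Col1a1fspKO and 96.3% in WT had at least 1 UMI of S100a8. Early B cells, which should lack the gene, gave 93.8% and 97.3%, and before thinning both types were at 99.3% or more. Median depth was 5535 and 5103 UMIs in mature monocytes and 4937 and 7235 in early B cells. With shares this near 100% the types cannot be told apart by them. The summed S100a8 level of mature monocytes over that of early B cells was 1.17 in Col1a1fspKO (1.09 to 1.25) and 1.52 in WT (1.42 to 1.63), and the S100a9 ratios were 1.15 (1.06 to 1.24) and 1.43 (1.32 to 1.54). The direction of all 4 ratios turned when cells of 2 lineages were put in their strongest class. The median cell of the 9 other classes lay between 1324 and 1517 CPM in Col1a1fspKO and between 1151 and 1503 in WT. For S100a9 the summed levels of these classes were 1158 to 2395 CPM in Col1a1fspKO and 1027 to 1917 in WT, again highest in Mpo+ progenitors, and most neighbours below them had overlapping intervals. The 5% of Mpo+ progenitors with most S100a9 held 48.1% of its UMIs in Col1a1fspKO and 23.7% in WT. Their median cell had 1079.6 and 1219.9 CPM of S100a9. These values lay within the range of class medians, 1037 to 1425 in Col1a1fspKO and 958 to 1271 in WT.

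Granule genes and other neutrophil genes were also found outside neutrophils. In 6 other classes (early and mature B cells, T and NK cells, erythroid precursors, early and mature monocytes), the S100a8 level was 0.570% to 1.17% of that in neutrophils, and S100a9 0.799% to 1.41%. The corresponding ranges were 0.515% to 0.721% for Camp, 0.356% to 0.694% for Ngp and 0.401% to 0.890% for Lcn2, with higher ranges for Ltf, 0.528% to 1.11%, and for Retnlg, 2.37% to 5.31%. S100a8 UMIs per UMI of Camp and Ngp were 1.62 to 4.32 in the neutrophil classes and 2.05 to 4.30 elsewhere. S100a8 UMIs per S100a9 UMI were 1.0 to 1.58 outside neutrophils, at or below most of the neutrophil values. Camp, Ngp, Ltf and Retnlg were part of the neutrophil gate, which limits them in the other classes by construction. S100a8, S100a9 and Lcn2 were not. The part of the gate in these ranges was not tested.

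**Figure D2:**
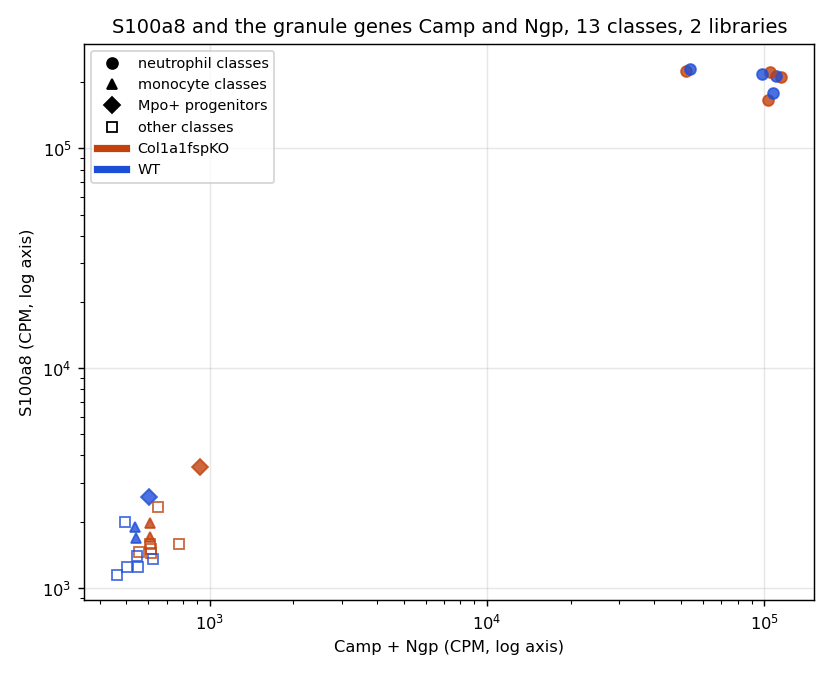
S100a8 level against the summed level of the granule genes Camp and Ngp in CPM, both on log axes, for 13 classes in Col1a1fspKO (red) and WT (blue). The 4 neutrophil classes form one group at the upper right, and the other classes lie together at 3552 CPM of S100a8 or less, with the Mpo+ progenitors at the top of that group.

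The erythroid precursors showed how few cells can set such a level. Their S100a8 sum was 2331 CPM in Col1a1fspKO and 1144 in WT, while the median cells were at 1505 and 1151 CPM. The 5% of cells with most S100a8 held 45.1% of the S100a8 UMIs of this class in Col1a1fspKO and 12.3% in WT. Retnlg, a marker of mature neutrophils, was also higher in this class, at 412 CPM against 149, and its part in the S100a8 difference was not tested.

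S100a6 was shared by mature neutrophils and monocytes, and it had a steeper gradient along the neutrophil stages than any other member. In Col1a1fspKO it was at 377 CPM in Fcnb+, 1134 in Ltf+, 2251 in Mmp8+ and 5587 in Retnlg-high neutrophils. WT had 278, 495, 1441 and 4499.5 CPM in the same classes. The Retnlg-high level was 14.8-fold that of Fcnb+ cells in Col1a1fspKO (13.3 to 16.5) and 16.2-fold in WT (14.4 to 18.3). Of all genes tested for this step, 22.8% were past 1.5-fold higher in Col1a1fspKO and 18.5% in WT, and S100a6 and S100a11 were among them in both libraries. S100a8 and S100a9 fell short, and S100a10 had too few UMIs in these classes to be tested. Which members passed depends on the total used. Without S100a8 and S100a9 in the total, S100a9 passed 1.5-fold in both libraries and S100a8 in Col1a1fspKO.

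Monocytes came next in S100a6. Early monocytes had 1528 CPM in Col1a1fspKO and 2003 in WT, and mature monocytes, gated on Wfdc17, Clec4a1 and Clec4a3, had 2694 and 3004. The level in mature monocytes was 1.76-fold that of early ones in Col1a1fspKO (1.64 to 1.90) and 1.5-fold in WT (1.41 to 1.60). Plasmacytoid dendritic cells followed with 363 and 577 CPM, and T and NK cells had 315 and 220.1, Mpo+ progenitors 227 and 194, and mature B cells 66.5 and 147. In both libraries Fcnb+ neutrophils, T and NK cells and Mpo+ progenitors lay near each other, without a gap beyond counting error between neighbours in that order. Early B cells, at 42.1 and 30.8 CPM, basophils, at 35.9 and 44.0, and erythroid precursors, at 63.0 and 19.7, were lowest, and neighbours among them did not differ beyond counting error.

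Not every neutrophil of a class held S100a6. Among cells thinned to 2500 UMIs, 45.6% of Fcnb+ neutrophils in Col1a1fspKO and 31.6% in WT had an S100a6 UMI, and the share reached 98.5% and 94.2% in Retnlg-high cells. Erythroid precursors, taken as background, gave 7.45% and 4.26%. Before thinning, the shares were 68.4% and 55.9% in Fcnb+ cells and 37.2% and 22.3% in erythroid precursors, whose median depth was 9327 and 11388 UMIs against 7031 and 7754 in Fcnb+ cells. Within Retnlg-high neutrophils S100a6 went with Retnlg itself, with a Spearman's rho of 0.45 over 203 cells in Col1a1fspKO and 0.52 over 104 in WT. In Fcnb+ neutrophils the same value was 0.02 in both libraries.

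**Figure D3:**
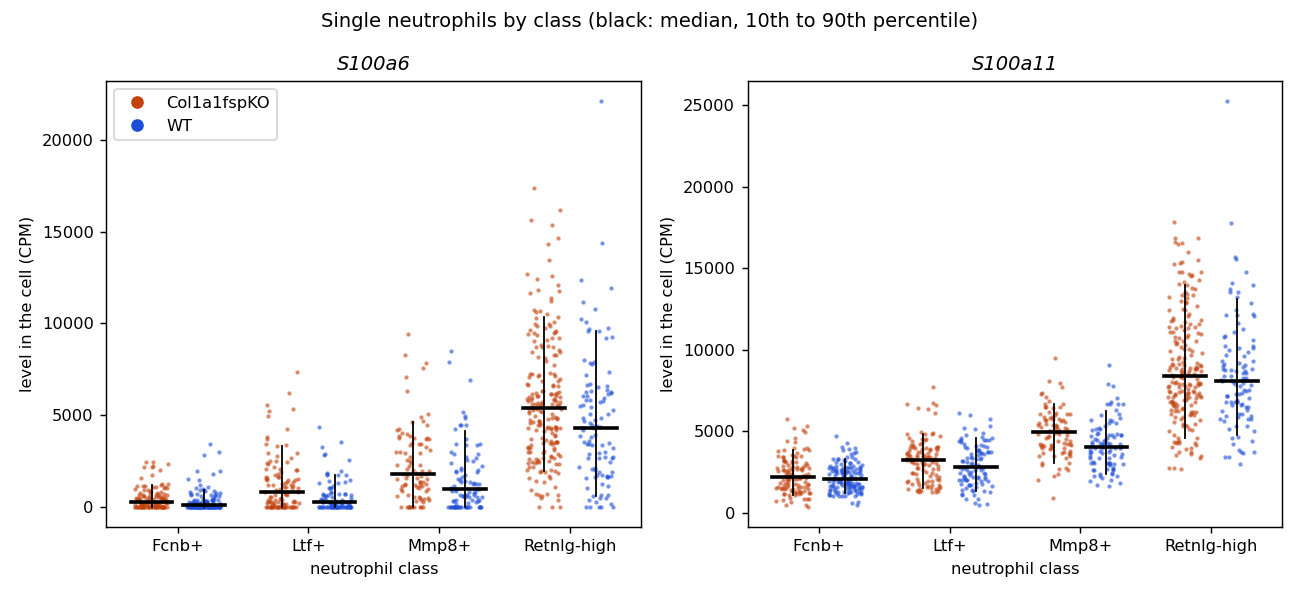
S100a6 (left) and S100a11 (right) in single neutrophils of the 4 classes, in CPM of the cell, with Col1a1fspKO in red and WT in blue; black bars give the median and the 10th to 90th percentile of cells. Both genes are highest in Retnlg-high cells, and the median S100a6 of Ltf+ neutrophils is 769 CPM in Col1a1fspKO against 238 in WT.

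Among members with at least 50 UMIs, S100a6 was also the one that differed most between the genotypes' neutrophils. Its level in Col1a1fspKO over WT was 2.29 (1.98 to 2.66) in Ltf+ neutrophils and 1.56 (1.40 to 1.75) in Mmp8+ neutrophils. In Fcnb+ cells the ratio was 1.36 (1.17 to 1.58) and in Retnlg-high cells 1.24 (1.17 to 1.31). The single cells moved with the sums, the median cell being at 265 against 94 CPM in Fcnb+, 769 against 238 in Ltf+, 1778 against 933 in Mmp8+ and 5393 against 4307 in Retnlg-high neutrophils. Ltf+ and Mmp8+ neutrophils were past 1.5-fold, where 3.27% and 4.56% of all genes tested were past it in the same direction. The Ltf+ value passed under every alternative run. Mmp8+ neutrophils fell short with the gate limits halved (log2 0.44) or with cells of 2 lineages in their strongest class (0.57), and Fcnb+ neutrophils passed when thinned (0.77), as a mean of single cells (0.64) or without the 5% of cells highest in S100a6 (0.87). S100a6 stood above 99.7% of genes in the ratio of Ltf+ neutrophils, 96.4% in Mmp8+, 93.4% in Fcnb+ and 82.7% in Retnlg-high cells.

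The stage of the cells within a class differed between the libraries as well. The median Retnlg level per 10000 UMIs was 5.98 in Ltf+ neutrophils of Col1a1fspKO and 4.38 in those of WT, 28.0 and 12.7 in Mmp8+, and 445 and 359 in Retnlg-high cells. Retnlg-high neutrophils made up 15.5% of the Col1a1fspKO cells and 8.90% of the WT cells. The Ltf+, Mmp8+ and Retnlg-high neutrophils were therefore regrouped by their own Retnlg level. The S100a6 ratio of Col1a1fspKO over WT was 2.0 (1.68 to 2.39) in cells under 5 UMIs of Retnlg per 10000, 1.46 from 5 to 15, 1.33 from 15 to 50 and 1.75 from 50 to 150. It was 1.27 (1.15 to 1.40) from 150 to 400 and 1.06 (0.980 to 1.14) above 400, where the interval included 1. S100a11 in the same 6 bands had ratios between 0.907 and 1.15.

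Monocytes had the opposite direction in S100a6. The ratio of Col1a1fspKO over WT was 0.763 (0.704 to 0.826) in early monocytes and 0.897 (0.849 to 0.947) in mature monocytes, neither past 1.5-fold. With 1 library each, the difference between neutrophils and monocytes was not tested. In the library totals, Retnlg-high neutrophils held 37.7% of the S100a6 UMIs of Col1a1fspKO and 21.5% of those of WT, with more such cells in the former.

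In 3 further classes, with few UMIs, the S100a6 ratio was past 1.5-fold. Erythroid precursors had 71 UMIs against 24 (ratio 3.19, 1.99 to 5.31), mature B cells 17 against 40 (0.452, 0.240 to 0.815) and plasmacytoid dendritic cells 62 against 68 (0.628, 0.438 to 0.899). In those classes 3.40%, 6.86% and 7.04% of genes tested were past 1.5-fold in the same direction. In the other classes the share past 1.5-fold in either direction was 11.1% in Mpo+ progenitors, 8.49% in Fcnb+, 8.21% in Ltf+, 11.1% in Mmp8+ and 10.1% in Retnlg-high neutrophils, 7.56% in early and 9.04% in mature monocytes, 7.95% in early B cells, 10.4% in T and NK cells and 12.2% in basophils. S100a11 passed in the same 3 classes with the same directions, at ratios of 1.70, 0.661 and 0.610. S100a8 and S100a9 were past 1.5-fold in erythroid precursors too, at ratios of 2.04 (1.91 to 2.18) and 1.67 (1.56 to 1.80). The 5% of these cells with most S100a9 held 39.4% of its UMIs in Col1a1fspKO and 10.7% in WT. In erythroid precursors the 5% of cells with most S100a6 held 47.9% of its UMIs in Col1a1fspKO and 33.3% in WT. In mature B cells they held 64.7% and 65.0%, and the median cell had no S100a6 UMI in either library. In erythroid precursors, leaving out the 5% of cells highest in S100a11 took its log2 ratio from 0.77 to 0.06.

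**Figure D4:**
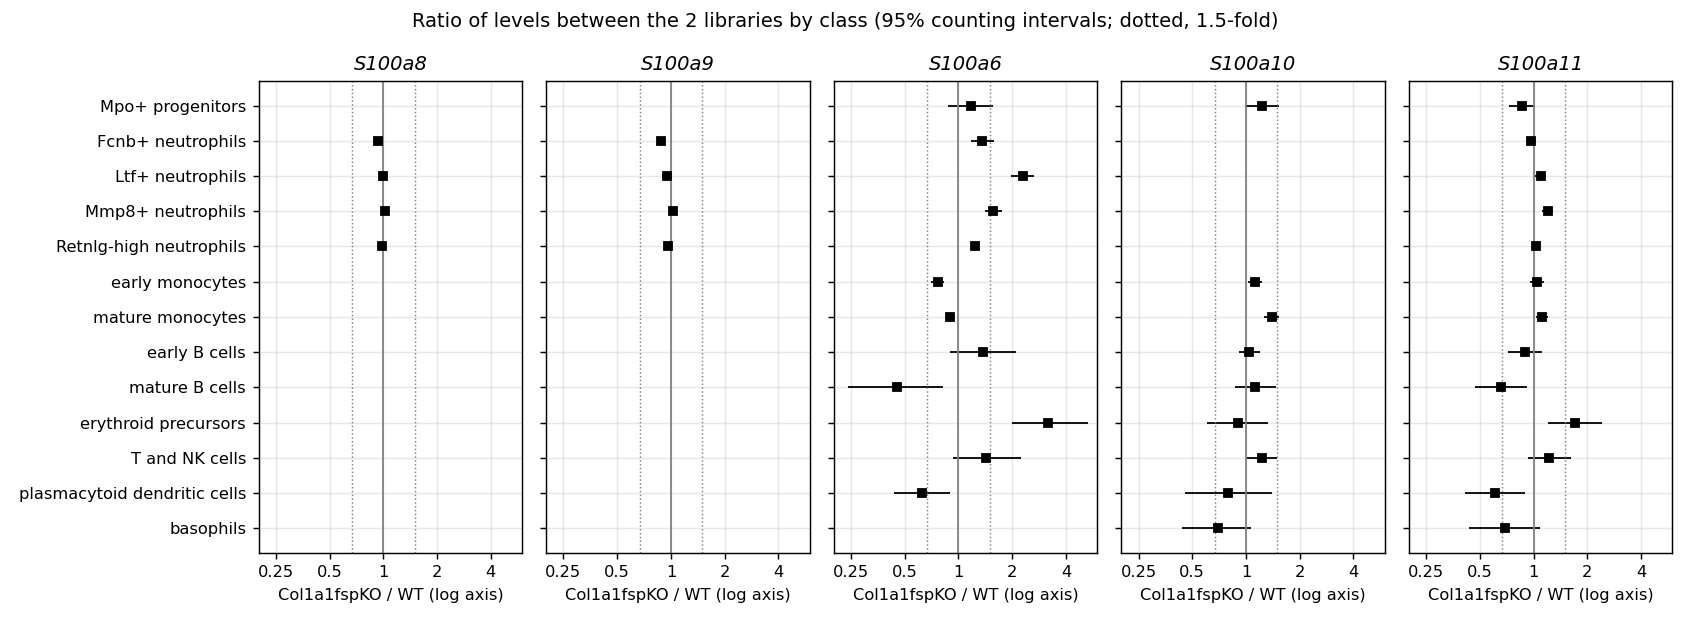
Ratio of the level in Col1a1fspKO to that in WT for each S100 gene and class on a log axis, with 95% counting intervals; dotted lines mark 1.5-fold, and ratios from under 50 UMIs, or of S100a8 and S100a9 outside neutrophils, are not drawn. S100a6 lies above 1 in the 4 neutrophil classes and below 1 in both monocyte classes, while S100a8 and S100a9 lie near 1.

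The calprotectin genes differed little between the genotypes in neutrophils. The S100a8 ratio of Col1a1fspKO over WT was 0.930 in Fcnb+, 0.995 in Ltf+, 1.02 in Mmp8+ and 0.980 in Retnlg-high neutrophils. S100a9 gave 0.881, 0.952, 1.03 and 0.968. With so many UMIs, counting intervals are narrow, but how far 2 pools of one genotype would differ is unknown.

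S100a11 had its highest level in mature neutrophils and a lower one in monocytes. It went in Col1a1fspKO from 1995 CPM in Fcnb+ through 3056 and 4993 to 8653 in Retnlg-high neutrophils. In WT it went from 2063 through 2788 and 4148 to 8424 CPM. The step from Fcnb+ to Retnlg-high cells was 4.34-fold (4.12 to 4.57) in Col1a1fspKO and 4.08-fold (3.87 to 4.31) in WT. Early monocytes had 1257 and 1204 CPM and mature monocytes 1542 and 1387, below every neutrophil class.

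The level of S100a11 also differed between Mpo+ progenitors and Fcnb+ neutrophils, classes that the gate on Camp, Ngp and Ltf parts. Across classes S100a11 went with S100a8 (Pearson's r 0.795), and how far the gates set this gap was not tested. Mpo+ progenitors held 563 CPM of S100a11 in Col1a1fspKO and 655 in WT, and Fcnb+ neutrophils were 3.54-fold and 3.15-fold above them. The median cell went from 414 to 2191 CPM in Col1a1fspKO and from 515 to 2073 in WT. The same step in S100a6 was 1.66-fold and 1.43-fold by sums, while its median cell went from 59.5 to 265 CPM and from 0 to 94, and the 5% of WT Mpo+ progenitors with most S100a6 held 48.0% of its UMIs there. T and NK cells, Mpo+ progenitors and basophils had S100a11 levels between 502 and 722 CPM with overlapping intervals between neighbours. Plasmacytoid dendritic cells had 316 and 518 CPM, mature B cells 238 and 361, early B cells 114 and 128, and erythroid precursors were lowest with 79.8 and 46.9. Within Retnlg-high neutrophils Spearman's rho of S100a11 with Retnlg was 0.63 in both libraries, and that of S100a6 with S100a11 was 0.35 in Col1a1fspKO and 0.46 in WT.

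S100a11 was nearer to 1 between the genotypes than S100a6. The Col1a1fspKO level divided by that of WT was 0.967 in Fcnb+, 1.10 in Ltf+, 1.20 (1.12 to 1.29) in Mmp8+ and 1.03 in Retnlg-high neutrophils, and 1.11 (1.03 to 1.20) in mature monocytes. No neutrophil or monocyte class passed 1.5-fold.

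S100a10 had the reverse pattern, high in monocytes and in T and NK cells and close to 0 in neutrophils. Early monocytes had 1566 CPM in Col1a1fspKO and 1392 in WT, T and NK cells 1339 and 1086, and mature monocytes 1078 and 775. Basophils had 520.1 and 748 CPM, mature B cells 473 and 419, Mpo+ progenitors 407 and 330.4, and early B cells 347 and 333. Plasmacytoid dendritic cells, with 175 and 221, and erythroid precursors, with 44.4 and 49.3, were lower. Early monocytes and T and NK cells overlapped in Col1a1fspKO but not in WT.

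S100a10 was far lower in Fcnb+ neutrophils than in Mpo+ progenitors, classes that the gate on Camp, Ngp and Ltf parts. The level in Fcnb+ neutrophils was 0.0798 of that in Mpo+ progenitors in Col1a1fspKO (0.0529 to 0.117) and 0.0455 in WT (0.0259 to 0.0751). A few progenitors weigh in these sums, the median Mpo+ cell being at 119.5 and 156 CPM and the 90th percentile at 1321 and 1375, while the median Fcnb+ cell had none in either library. The 4 neutrophil classes held only 32, 15, 4 and 10 UMIs of S100a10 in Col1a1fspKO and 17, 4, 6 and 3 in WT, for levels between 7.44 and 32.5 CPM. Among thinned Retnlg-high neutrophils 3.45% and 1.92% had an S100a10 UMI, no more than the 5.32% and 9.57% of erythroid precursors, and these shares were read as background. Mature monocytes gave 85.5% and 76.7%. Before thinning the shares were 4.93% and 2.88% in Retnlg-high neutrophils, with median depths of 3213 and 3507 UMIs, and 23.4% and 20.2% in erythroid precursors.

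Within the monocyte classes S100a10 was higher in early cells and S100a6 in mature ones. Mature over early monocytes was 0.688 in Col1a1fspKO (0.631 to 0.751) and 0.557 in WT (0.506 to 0.613). Between the genotypes, S100a10 in mature monocytes was 1.39-fold higher in Col1a1fspKO (1.26 to 1.53), short of 1.5-fold, which 5.10% of genes passed in that direction. The limit of the mature monocyte gate bears on this value, since doubling it gave a log2 ratio of 0.19 in place of 0.48 and 32 of 240 monocytes in Col1a1fspKO and 45 of 251 in WT lay within 1.5-fold of it. Early monocytes gave 1.13 (1.03 to 1.23) and T and NK cells 1.23 (1.01 to 1.5). None of the 9 classes with enough UMIs was past 1.5-fold for S100a10.

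The partner genes had patterns of their own. Anxa2, whose protein binds S100A10, was at 732 CPM in Retnlg-high neutrophils of Col1a1fspKO and 569.6 in WT, where S100a10 was nearly absent, and at 704 and 717 in mature monocytes. In early B cells, which had S100a10, Anxa2 was at 8.75 and 12.9 CPM. Across 24 points, the 12 classes with at least 20 cells in both libraries counted in each, Anxa2 was the gene most like S100a6, with a Pearson's r of 0.929 on log2(CPM + 10). Basophils were left out of these points because there were only 7 of them in Col1a1fspKO and 18 in WT.

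Anxa1, the partner of S100A11, was a neutrophil gene too, but it peaked earlier. Its level in Col1a1fspKO was 1523 CPM in Fcnb+, 2238 in Ltf+, 3049 in Mmp8+ and 1868 in Retnlg-high neutrophils, and monocytes of both libraries had 178 to 208. Anxa11 was between 79.9 and 229 CPM in the neutrophil classes. Cacybp was highest in early B cells, at 251 and 253 CPM, where S100a6 was near its lowest.

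The genes most like each member were found among 6167 genes over the same points. For S100a8 they were S100a9 (r 0.999), Lcn2, Mapk13, Wfdc21 and Ngp, and for S100a9 they were S100a8, Lcn2, Wfdc21, Chil1 and 4930438A08Rik. After Anxa2, S100a6 was closest to Fcer1g, Sat1, Serf2 and Neat1, and S100a11 to Ostf1 (0.964), 2310001H17Rik, Prdx5, Myl6 and Gng5. S100a10 was closest to Crip1 (0.960), Faim, Gm9844, Cd48 and Tmsb10, and its r with S100a8 was -0.841. The points of a library share its background RNA, and no test was made.

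S100a4 resembled none of the neutrophil patterns, being at 1354 CPM in mature monocytes of Col1a1fspKO and 1450.0 in those of WT and at most 29.7 in any neutrophil class. Both monocyte classes thus held S100a4, S100a6 and S100a10 together, and mature neutrophils held S100a6 without the other two.

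Lists of related genes were compared between the genotypes in Retnlg-high neutrophils and mature monocytes. The lists held 12 other S100 genes, 11 annexins and further intracellular partners, 10 receptors or co-receptors of released S100A8 and S100A9, 8 myeloid transcription factors and 8 other neutrophil genes. In Retnlg-high neutrophils 1, 5, 3, 3 and 6 genes of the lists had enough UMIs, and 0 were past 1.5-fold, where 10.1% of all genes were. Their median log2 ratios were -0.01, -0.31, -0.23, 0.20 and -0.06, beside 0.00 for all genes. Anxa2 was at a ratio of 1.29 (1.10 to 1.51) there.

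In mature monocytes 3, 11, 4, 5 and 6 genes of these lists could be compared, and 3 were past 1.5-fold, where 9.04% of all genes were. Anxa11, the S100A6 partner, had 41.5 CPM in Col1a1fspKO and 21.8 in WT (ratio 1.91, 1.08 to 3.48). Anxa3 had 28.3 and 44.7 (0.634, 0.376 to 1.06). Cebpa, a transcription factor of the granulocyte and monocyte lineages, had 82.9 and 151 (0.549, 0.411 to 0.728). The medians of the 5 lists were -0.10, -0.12, 0.02, -0.04 and -0.09, beside 0.02 for all genes.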

How the data were processed

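For each library the authors deposited 1 table of raw counts of UMIs by gene and cell; Cell Ranger, mm10 and Seurat 3.5.3 are named in the submitters' processing notes. The tables give gene symbols only. All deposited cells were used, without a further filter. Genes missing from the table of 1 library were counted as 0 UMIs there.

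The members, gene lists and marker lists were chosen with earlier results of these data known, and the limits of the gates were set after the values were seen. Cell types came from marker sums per 10000 UMIs of the cell without the 5 members. Neutrophils needed 100 of Camp, Ngp and Ltf together or 100 of Retnlg, and were then split at 100 of Retnlg, 8 of Mmp8, 3 of Fcnb and 10 of Ltf in that order. Monocytes needed 15 of Csf1r, F13a1, Ms4a6c, Fn1, Ly86 and Ccr2, and mature ones 4 of Wfdc17, Clec4a1 and Clec4a3. The other limits were 15 for B cells, 10 for mature B cells, 15 for erythroid precursors, 30 for T and NK cells, 15 for plasmacytoid dendritic cells, 100 for basophils and 15 for Mpo+ progenitors. All listed markers were higher in their class than in other cells except for Fcnb+ neutrophils (4 of 7) and early monocytes (8 of 9). Many of these markers also set the gates, which makes them higher by construction. Of markers not used in gates, 1 of 4 was higher in Fcnb+ neutrophils and 2 of 3 in early monocytes. Early B cells and T and NK cells had 0 such markers, and in the remaining classes all such markers were higher. Doublets were treated by leaving cells of 2 lineages out of every class; Scrublet marked only 3 and 4 cells, and its calls were used in 1 alternative only.

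UMIs were summed per class and library and divided by the class total (CPM), with exact Poisson intervals for levels, exact binomial intervals for ratios and Clopper-Pearson intervals for shares of cells, at 95%. Genes with at least 50 UMIs in a class over both libraries were compared, and 1.5-fold served as a limit of size, not as a test. A count of 0 was set to 3 UMIs in a ratio. To compare shares of cells and correlations, each cell was thinned to 2500 UMIs. The genes named are the 5 members, list genes past 1.5-fold in Retnlg-high neutrophils or mature monocytes, S100a4, Anxa1, Anxa2, Anxa11 and Cacybp, and the 5 genes with the highest Pearson's r with each member among genes with at least 200 UMIs; Retnlg, Camp, Ngp, Ltf and Lcn2 are given as neutrophil genes. The intervals for ratios were run on class sums simulated as Poisson counts. Those sums held no spread between cells beyond counting error, so the run cannot show how the intervals hold for these cells. Promoter sequences and positions are from RefSeq on GRCm38.p6, and 4 of 5 members matched the promoter table. Python 3.11.15, numpy 2.4.6, pandas 2.3.3, scipy 1.17.1, scanpy 1.11.5 and matplotlib 3.10.9 were used.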

Additional observations from a re-analysis of the deposited data

Results flagged for a closer look

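S100a6 moved in opposite directions in neutrophils and monocytes. The ratio of Col1a1fspKO over WT was 1.36 in Fcnb+, 2.29 in Ltf+, 1.56 in Mmp8+ and 1.24 in Retnlg-high neutrophils, and 0.763 in early and 0.897 in mature monocytes. With 1 library per genotype the difference between the lineages was not tested. The direction was the same under every alternative run for these classes, although the early monocyte value came close to no change when the gate limits were halved.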

How the results depend on the processing

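No paired analysis was possible because each genotype had 1 library, and leaving out a library was not run for the same reason. Counting intervals cover neither the spread between mice nor that between libraries, and the gates are not the authors' annotation. Putting cells of 2 lineages in their strongest class, leaving out the 5% of cells highest in a member and the Retnlg bands were chosen after seeing the data. All values below are log2 ratios, and the cause of each shift was not tested.

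In mature monocytes over early B cells, S100a8 in WT, 0.60, was -0.50 with the gate limits doubled and -0.42 with cells of 2 lineages in their strongest class, and S100a9, 0.52, was -0.55 and -0.42. In Col1a1fspKO, S100a8, 0.22, was -0.92 with clusters and -0.83 with cells of 2 lineages in their strongest class, and S100a9, 0.20, was -0.81 and -0.82. S100a6 in Col1a1fspKO over WT was 0.77 in thinned Fcnb+ neutrophils and 0.87 without the top 5% of cells, against 0.44. It was 0.75 in Ltf+ neutrophils with limits doubled, against 1.20, and 0.44 in Mmp8+ neutrophils with limits halved, against 0.64. In Retnlg-high neutrophils, 0.31 became 0.19 with cells under 2909 UMIs left out and 0.22 with limits doubled. In early monocytes, -0.39 became -0.05 with limits halved and -0.19 with classes from clusters. S100a10 in mature monocytes, 0.48, was 0.31 with limits halved, 0.19 with limits doubled and 0.26 with clusters.

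The step from Fcnb+ to Retnlg-high neutrophils in S100a6, 3.89 in Col1a1fspKO, was 4.11 without S100a8 and S100a9 in the total, 3.60 thinned, 2.85 with clusters, 3.57 as a mean of single cells and 4.05 without the top 5%. In WT, 4.02 became 4.21 without those genes in the total, 4.29 with limits doubled, 3.07 with clusters and 4.56 without the top 5%. For S100a11 in Col1a1fspKO, 2.12 became 2.34 without S100a8 and S100a9 in the total, 2.24 without the 20 most abundant genes, 2.01 with the shared UMI minimum, 1.93 thinned, 1.90 and 2.22 with limits halved and doubled, 1.67 with clusters and 1.92 as a mean of single cells. In WT, 2.03 became 2.22, 2.16, 1.92 (halved), 2.20 (doubled) and 1.57 (clusters). Of the values under alternatives for the main results, 97 stayed within the counting interval of the reported value and 33 did not. The values for the other results include shares of cells and counts of list genes. Of these, 447 stayed, 189 moved, and 2 changed sign where the reported value was past 1.5-fold. Among the 724 log2 values under alternatives, 38 had the opposite sign to the reported value, 2 of them where the reported value was past 1.5-fold. No cluster was named Ltf+ or Mmp8+, so those classes have no value by clusters. In a cluster of 311 cells named Fcnb+, the most frequent gate class was Ltf+ neutrophils, with 141 cells. Values by clusters for Fcnb+ neutrophils therefore cover another set of cells than the gate. Of the 2287 cells in a class by gate, 76.9% were in the same class by clusters.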

Other observations

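Cells that passed the gates of 2 lineages, 49 in Col1a1fspKO and 38 in WT, had 80043 and 71571 CPM of S100a8 and 49156 and 45682 CPM of S100a9, between the neutrophil classes and the rest. Cells that passed no gate had 1970.0 and 2124 CPM of S100a8, within the range of the other non-neutrophil classes.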
